A study of Mus musculus with 36 samples.

Results

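The 39 genes described here carry out DNA replication and cell division. They were chosen by name from the 53299 genes of a table of RNA sequencing counts, 17 for replication and 22 for mitosis, and all 39 were found and passed the filter on low counts. The cells were mouse dendritic cells of 2 kinds, cDC1 and cDC2, grown from bone marrow with FLT3 ligand, the growth factor of dendritic cell precursors. Each kind was left untreated (Nothing), given LPS, a cell wall product of Gram-negative bacteria sensed by TLR4, given PGPC, an oxidized phospholipid, or given LPS and PGPC together (LPS_PGPC). The series calls the 3 libraries of each group biological replicates. 23 libraries in 8 groups were used, since 12 libraries that had received alum and 1 PGPC library of cDC2 with 3805 counts were left out, so cDC2 PGPC has 2 libraries. The labels name no strain, age or sex of the animals, no dose and no time, and do not say whether replicates came from separate animals. If they did not, p-values measure only the spread between these libraries.

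Library totals ran from 243870 to 16601064 counts, and 9687 to 15608 genes had a count. The shallowest library was untreated cDC2 replicate 6, where 1 count is worth 3.73 CPM (counts scaled by the library total and its TMM factor, the unit of every level below). Of the markers of the labelled kinds, Clec9a stood at 24, 14.4 and 72.4 CPM in the untreated cDC1 libraries and 1.34, 0.516 and 0 in cDC2, and the cDC1 factor Batf3 at 41.2, 38.8 and 23.1 against 1.07, 0 and 3.73. Of the 10 cDC1 markers 7 were called lower in untreated cDC2 and 0 higher (median log2 fold change -3.28). The cDC2 list did not follow its label as a whole: of the 9 tested, Sirpa and Itgam were called higher in untreated cDC2 (1.62 and 1.73) but the cDC2 factor Irf4 and Ltb were called lower (-2.84 and -4.40), with a median of -0.80. Sirpa stood at 504, 354 and 217 CPM in cDC1 and 1189, 1262 and 836 in cDC2, and Irf4 at 17.2, 20.3 and 37 and 2.41, 5.41 and 0. Xcr1 and Cd209a, which mark mature cDC1 and a part of cDC2, were close to absent: Xcr1 had at most 0.379 CPM in an untreated cDC1 library, and Cd209a at most 0.267 CPM in an untreated cDC2 library.

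A cell that divides copies its DNA once in S phase and shares it out in M phase. In G1 the proteins Cdc6 and Cdt1 load the ring of Mcm2 to Mcm7 on DNA, and this licensed ring becomes the replicative helicase once Cdc45 and the GINS complex join it. E2F factors, released from Rb when cyclin D and cyclin E kinases act, switch on these genes together with Pcna and the enzymes that make deoxynucleotides. Genes of G2 and M phase come on later, through CCAAT boxes and the cell cycle homology region (CHR) of their promoters, bound by NF-Y and by the DREAM and MuvB complexes with B-Myb and Foxm1. Their products drive Cdk1 with cyclins A and B, build the spindle, hold the checkpoint and then open the anaphase-promoting complex. Dendritic cells in FLT3 ligand cultures arise from dividing precursors, and division stops as they mature.

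In untreated cells both programmes were expressed, and 8 of the 22 mitosis genes were called lower in cDC2, where 6.17% of all tested genes were. Each of 7 of these 8 calls was lost in at least 1 fit that left out a library. Levels were also divided by all annotated exon bases of each gene. The length of the transcript expressed was not known, so the order between genes is approximate. Per kilobase of exon, the mitotic cyclin Ccnb2 (34.8 CPM per kb, group mean) and Cdc20, the activator of the anaphase-promoting complex (21), were the highest of the 39 in cDC1. Next came the sliding clamp Pcna (18.7), the ribonucleotide reductase subunit Rrm2 (18.7) and the helicase subunit Mcm6 (18.5), which were close to each other. In cDC2 the first 5 places were held by replication genes: the licensing factor Cdt1 (40.8 CPM per kb), Mcm6 (29), Mcm3 (20.7), Pcna (20.5) and Mcm4 (14.8). There Ccnb2 stood at 3.4 CPM per kb and Cdc20 at 3.87. The kinetochore gene Cenpf was last in both kinds, at 0.613 and 0.171 CPM per kb.

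The comparison of untreated cDC2 with untreated cDC1 called 8 of the 39 genes lower and 1 higher, at an adjusted p below 0.05 over the 12463 genes tested. The 8 lower ones were all mitotic, 8 of 22, where 6.17% of all tested genes were called lower and 3.99% higher. Ccnb2 stood at 61.8, 62.9 and 35 CPM in the 3 untreated cDC1 libraries and 4.28, 3.87 and 7.46 in those of cDC2, so that the groups did not overlap. Its log2 fold change (cDC2 over cDC1; all differences below are log2 fold changes, with ± their standard error) was -3.55 ± 0.86 with an adjusted p of 0.00878. Ube2c, the ubiquitin-conjugating enzyme of the anaphase-promoting complex, had 18.9, 67.9 and 27.8 CPM in cDC1 and 5.08, 3.09 and 0 in cDC2 (-3.41 ± 0.73, adjusted p = 0.00331). The cDC2 library at 0 is the shallow one. Cdc20 was also lower (-2.66 ± 0.65, adjusted p = 0.00909), as were Birc5 and Aurkb, which together form part of the chromosomal passenger complex (-2.62 and -1.88), the polo kinase Plk1 (-2.66), cyclin B1 (Ccnb1, -2.14) and the topoisomerase Top2a (-1.69).

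Of the replication genes of untreated cells, 0 of 17 were called lower and 1 called higher in cDC2. Both counts are near the shares over all tested genes (6.17% and 3.99%) and say nothing particular about this set. The one higher in cDC2 was Cdt1, at 136, 125 and 123 CPM against 46.3, 37.4 and 28.9 in cDC1. Every cDC2 library lay above every cDC1 library, and the log2 fold change was 1.79 ± 0.41, adjusted p = 0.00609. Mcm2 (0.38 ± 0.61, adjusted p = 0.749), Pcna (0.07 ± 0.46, adjusted p = 0.952), Rrm2 (-0.84 ± 0.39, adjusted p = 0.179) and Ccne1 (0.48 ± 0.77, adjusted p = 0.755) were not called, and Mcm5, at -1.42 ± 0.50, missed the threshold with an adjusted p of 0.0718. Ccna2 (-1.34 ± 0.56, adjusted p = 0.134), Cdk1 (-1.03 ± 0.72, adjusted p = 0.398), Mki67 (-0.45 ± 0.56, adjusted p = 0.665) and Foxm1 (-0.16 ± 1.30, adjusted p = 0.966) were also not called. The median log2 fold change was 0.12 for the 17 replication genes, -1.78 for the 22 mitosis genes and -0.10 for all tested genes. The 3 cDC2 libraries lay wholly below those of cDC1 for 16 mitosis genes and 3 replication genes, and wholly above for 3 replication genes and 0 mitosis genes, against 19.9% and 14.9% of all tested genes. For the 17 replication genes both counts are near these shares. In bulk RNA, fewer dividing cells and less RNA of these genes per dividing cell cannot be told apart.

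3 of 10 tested monocyte and macrophage markers were higher in cDC2 and 1 lower (median 1.5), at 1442 to 4167 CPM in sum in untreated cDC1 against 5557 to 6974 in untreated cDC2. 5 of 7 tested plasmacytoid dendritic cell markers were lower in cDC2 and 0 higher (median -2.94), at 548 to 717 CPM in sum in untreated cDC1 against 56 to 118 in untreated cDC2, with Klk1 at 0 in both and Ly6d at 0 in the latter. 5 of 6 tested granulocyte precursor markers were lower in cDC2 and 0 higher (median -7.74), at 47.2 to 198 CPM in sum in untreated cDC1 against 0 to 1.6 in untreated cDC2, with Elane, Ms4a3 and Cebpe at 0 in both and Ctsg, Ltf, Camp, Ngp and S100a9 at 0 in the latter. 2 of 7 tested stem and progenitor markers were lower in cDC2 and 0 higher (median -2.32), at 196 to 265 CPM in sum in untreated cDC1 against 26.7 to 52.2 in untreated cDC2, with Spink2 at 0 in both and Myb at 0 in the latter. Further marker calls were 0 higher and 3 lower of 6 pan-dendritic markers and 1 of 6 B cell markers (lower). Their part in the difference between the kinds was not tested. The share of counts from the ribosomal RNA locus was 40.7% to 71.9% in untreated cDC1 and 28.6% to 37.3% in untreated cDC2, without overlap. With that locus left out of totals and fit, none of the 9 calls was lost. The count of 9 called genes was 4 without untreated cDC1 replicate 2, 2 without untreated cDC2 replicate 4, 2 without untreated cDC2 replicate 5 and 4 without untreated cDC2 replicate 6. Cdt1 and Ube2c kept their calls under each of the 10 alternatives run, with highest adjusted p of 0.0326 and 0.0369. The other 7 each lost theirs under at least 1 that left out a library, with highest adjusted p of Ccnb1 (0.182), Ccnb2 (0.0745), Cdc20 (0.0813), Top2a (0.154), Aurkb (0.165), Plk1 (0.16) and Birc5 (0.106).

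**Figure D1:**
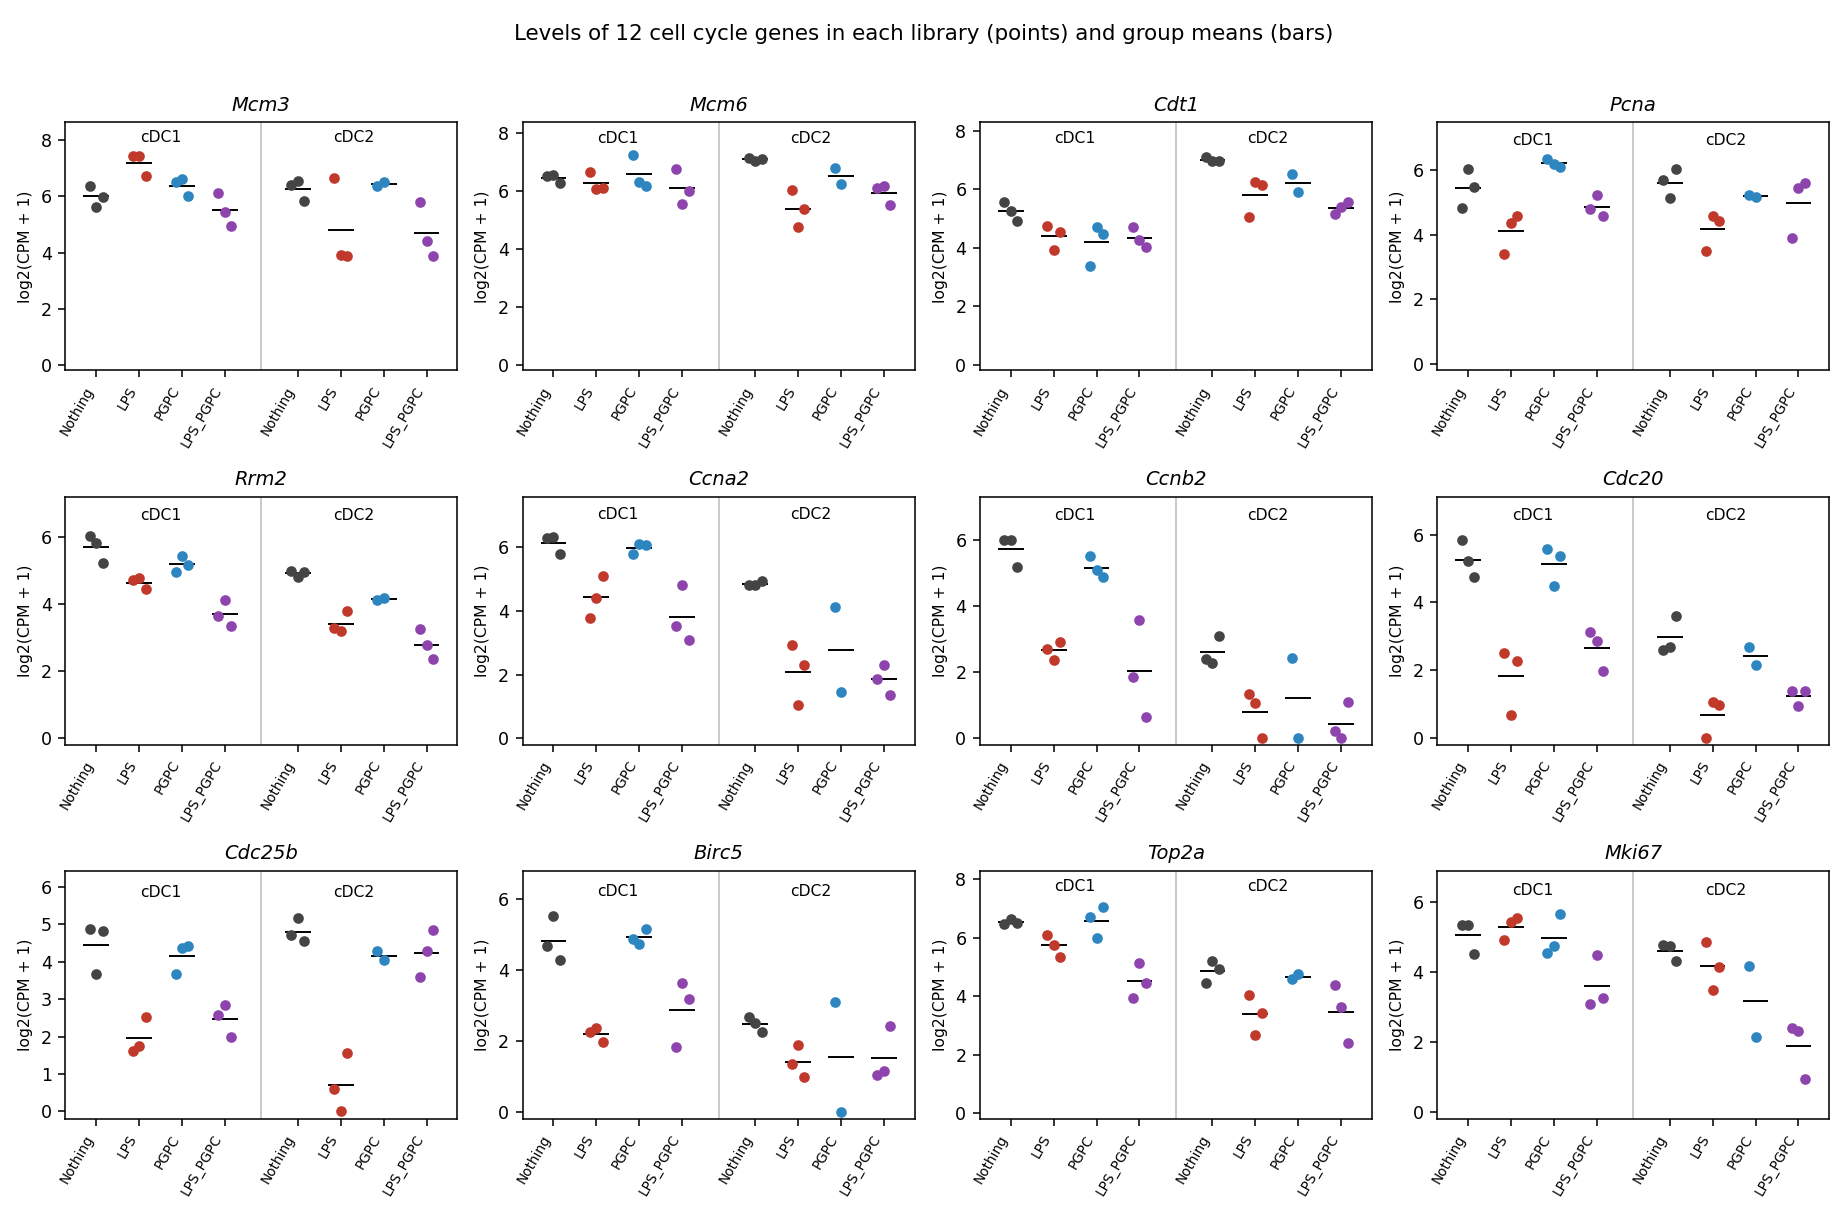
Level of 12 of the genes in each library, as log2(CPM + 1) on a linear axis, with a point per library and a bar at the group mean, for cDC1 on the left and cDC2 on the right of each panel. Ccnb2, Cdc20 and Birc5 of cDC1 are high in the Nothing and PGPC libraries and low in every library with LPS, while Mcm3 of the cDC1 LPS libraries (174, 172 and 105 CPM) lies above the untreated ones (82.4, 48.5 and 62.4).

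Promoters of these genes are shown because different short motifs are known for the 2 programmes, as described above. RefSeq start sites on GRCm38.p6 were at hand for 31 of the 39 genes, 14 for replication and 17 for mitosis. The 250 bases before each start were searched on both strands for E2F letters (TTTCCCGC, TTTCGCGC, TTTGCCGC or TTTGGCGC), CHR letters (TTTGAA or TTCGAA) and CCAAT. E2F letters occurred before 4 of 14 replication genes (28.6%), 1 of 17 mitosis genes (5.88%) and 1.91% of the 27025 genes in the table. CHR letters together with CCAAT occurred before 21.4%, 47.1% and 6.21%. CHR letters with or without CCAAT occurred before 21.4%, 47.1% and 17.4%, and at least 1 CCAAT before 64.3%, 88.2% and 34.5%. No motif was confined to 1 set. CCAAT was present at least 2 times before 35.7% of the replication genes, 58.8% of the mitosis genes and 10.5% of all genes. The promoters of both sets were richer in G and C (median 56.6% and 61.6%) than the table (median 52%). A match is a description of letters, not evidence of binding.

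The sequences below are the last 140 bases before the start, printed 5′ to 3′ on the gene's strand with motif letters in capitals. Mcm6 and Mcm3 are shown as helicase genes and Ccnb2, Cdc20, Cdc25b and Top2a as mitotic genes whose levels are described below. Mcm6 (chr1:128359706-128359845, minus strand) carries E2F letters in 2 stretches, the first an overlap of 2 matches, and 2 CCAAT boxes on the other strand:
Mcm6: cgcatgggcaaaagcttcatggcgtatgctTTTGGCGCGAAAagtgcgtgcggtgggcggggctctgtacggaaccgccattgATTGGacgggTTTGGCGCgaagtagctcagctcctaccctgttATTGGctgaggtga
Mcm3 (chr1:20820313-20820452, minus strand) has 3 CCAAT boxes and no E2F or CHR letters here:
Mcm3: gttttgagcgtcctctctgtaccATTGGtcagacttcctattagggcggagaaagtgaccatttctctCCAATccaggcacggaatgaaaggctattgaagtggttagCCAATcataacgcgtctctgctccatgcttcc
Ccnb2 (chr9:70421555-70421694, minus strand) has 3 CCAAT boxes, 87, 54 and 21 bases before its start:
Ccnb2: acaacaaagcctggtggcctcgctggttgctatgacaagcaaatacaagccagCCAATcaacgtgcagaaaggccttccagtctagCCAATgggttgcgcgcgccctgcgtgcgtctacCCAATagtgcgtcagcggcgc
Cdc20 (chr4:118437353-118437483, minus strand), printed without the last 9 bases, where GENCODE M21 lists an exon, has CHR letters near its end and a CCAAT box 53 bases before the start:
Cdc20: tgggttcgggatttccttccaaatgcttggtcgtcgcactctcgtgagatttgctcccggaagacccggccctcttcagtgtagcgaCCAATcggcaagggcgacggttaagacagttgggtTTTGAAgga
Cdc25b (chr2:131186808-131186947, plus strand) has 1 CCAAT box, on the other strand:
Cdc25b: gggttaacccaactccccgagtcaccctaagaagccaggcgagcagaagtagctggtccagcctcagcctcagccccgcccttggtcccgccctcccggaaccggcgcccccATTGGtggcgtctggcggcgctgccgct
Top2a (chr11:99024190-99024329, minus strand) has 3 CCAAT boxes and 3 matches to CHR letters:
Top2a: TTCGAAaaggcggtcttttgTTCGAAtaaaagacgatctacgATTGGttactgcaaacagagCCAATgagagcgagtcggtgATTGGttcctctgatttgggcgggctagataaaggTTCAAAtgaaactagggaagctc

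With LPS, 8 of the 22 mitosis genes and 3 of the 17 replication genes of cDC1 fell and 0 of the 39 rose, where 9.37% of all tested genes were called lower and 8.56% higher. Cdc20 (chr4:118432901-118437352, GRCm38, GENCODE M21), which activates the anaphase-promoting complex, stood at 55.8, 36 and 26 CPM untreated and 4.72, 0.591 and 3.82 after LPS. All 3 LPS libraries lay below all 3 untreated ones, and the log2 fold change was -3.54 ± 0.63, adjusted p = 2.81e-04. Ccnb2 (cyclin B2, chr9:70407692-70421547) went from 61.8, 62.9 and 35 to 5.52, 4.13 and 6.46 CPM (-3.28 ± 0.79, adjusted p = 0.00472). Birc5 (survivin, chr11:117849251-117855743) went from 24.9, 45.2 and 18.6 to 3.74, 4.13 and 2.94 CPM (-3.04 ± 0.69, adjusted p = 0.00283). Neither gene overlapped between the groups. The Cdk1-activating phosphatase Cdc25b (chr2:131186949-131198497) had 28.3, 11.7 and 27.2 CPM untreated, replicate 2 being the lowest, and 2.05, 2.36 and 4.7 with LPS (-2.87 ± 0.59, adjusted p = 0.00128).

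The other mitosis genes that fell were Ube2c (-2.58 ± 0.66, adjusted p = 0.00768), Aurkb, the kinase of the passenger complex (-2.0 ± 0.57, adjusted p = 0.0157), Ccnb1 (-1.85 ± 0.61, adjusted p = 0.0362) and cyclin A2 (Ccna2, -1.68 ± 0.55, adjusted p = 0.0354). Ccna2 stood at 78.1, 79.5 and 54.2 CPM untreated and 12.7, 20.1 and 33.5 after LPS. The kinase Cdk1 itself, at 12.9, 25 and 16.6 against 4.9, 3.54 and 7.34 CPM, showed no overlap but was not called (-1.78 ± 0.71, adjusted p = 0.0829). Mki67, which encodes the Ki-67 antigen of dividing cells, was at 39.5, 39.4 and 21.9 CPM untreated and 29.1, 41.9 and 45.8 with LPS (0.22 ± 0.54, adjusted p = 0.825). Top2a was at 88.4, 99.9 and 90.8 and 68.2, 53.1 and 40 CPM (-0.79 ± 0.46, adjusted p = 0.244), where the LPS libraries were all lower but the difference was not called. The spindle checkpoint gene Bub1b overlapped between the groups (24.9, 30.7 and 23 against 42.7, 32.5 and 26.4 CPM), and Foxm1, a transcription factor of mitotic genes, was not called (-1.35 ± 1.29, adjusted p = 0.507).

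Of the 17 replication genes 3 were called lower, Tk1, Pcna and Rrm2, where 9.37% of all tested genes were. For 17 genes this count is not far from that share. The other nucleotide genes, Rrm1 and Tyms, were not called. Tk1, thymidine kinase, went from 8.58, 19.1 and 13.4 to 1.78, 4.13 and 3.53 CPM (-2.20 ± 0.61, adjusted p = 0.0136). Pcna went from 27.5, 63.6 and 43.5 to 9.62, 19.5 and 22.9 CPM (-1.40 ± 0.46, adjusted p = 0.0354) and Rrm2 from 63.5, 55.7 and 36.1 to 25, 26 and 20.6 CPM (-1.11 ± 0.38, adjusted p = 0.0437), with no overlap for any of the 3. None of the 6 helicase subunits was called. Mcm3 stood at 82.4, 48.5 and 62.4 CPM untreated and 174, 172 and 105 with LPS, all higher, at 1.23 ± 0.57, adjusted p = 0.138. Mcm2 (0.45 ± 0.60, adjusted p = 0.653) was not called, nor were Mcm5 (-1.25 ± 0.48, adjusted p = 0.0742) and cyclin E1 (Ccne1, -0.21 ± 0.75, adjusted p = 0.884). The 6 helicase genes summed to 366, 347 and 275 CPM in the untreated libraries and 468, 387 and 317 in the LPS libraries, which overlap, while the 22 mitosis genes summed to 674, 784 and 518 and 324, 282 and 276 CPM, which do not. The median log2 fold change was -0.14 for replication, -1.47 for mitosis and -0.12 for all tested genes.

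The LPS libraries lay wholly below the untreated ones for 13 mitosis and 6 replication genes and wholly above for 1 and 2, against 20.2% and 18.8% of all tested genes. The share of counts from the ribosomal RNA locus was 40.7% to 71.9% in the untreated and 13.9% to 25.9% in the LPS libraries of cDC1. Left out of totals and fit, that locus left the count of called genes at 11. 7 of 10 tested monocyte and macrophage markers were lower and 1 higher (median -2.60), at 1442 to 4167 CPM in sum in untreated cDC1 against 805 to 1656 in cDC1 with LPS. 2 of 7 tested plasmacytoid dendritic cell markers were lower and 0 higher (median -0.47), at 548 to 717 CPM in sum in untreated cDC1 against 249 to 419 in cDC1 with LPS, with Klk1 at 0 in both. 5 of 6 tested granulocyte precursor markers were lower and 0 higher (median -7.07), at 47.2 to 198 CPM in sum in untreated cDC1 against 0 to 6.95 in cDC1 with LPS, with Elane, Ms4a3 and Cebpe at 0 in both and Mpo, Ctsg, Ltf and Ngp at 0 in the latter. With LPS in cDC1, 1 of 7 tested stem and progenitor markers was lower (196 to 265 against 82.6 to 114 CPM in sum, with Spink2 at 0 in both). Other marker calls were 1 higher and 3 lower of 10 cDC1 markers, 3 higher and 3 lower of 9 cDC2 markers, 2 higher and 1 lower of 6 pan-dendritic markers, 1 of 6 B cell markers (lower) and 1 of 4 mast cell and basophil markers (higher). Their part in the fall of these genes was not tested. The count of 11 was 4 without untreated cDC1 replicate 2, 5 without cDC1 LPS replicate 1 and 7 without cDC1 LPS replicate 2. Ccnb2, Cdc25b, Cdc20 and Birc5 kept their calls under all 11 alternatives run, and the other 7 lost theirs under at least 1, with highest adjusted p of Pcna (0.17), Rrm2 (0.252), Tk1 (0.085), Ccna2 (0.156), Ccnb1 (0.181), Ube2c (0.084) and Aurkb (0.0716).

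**Figure D2:**
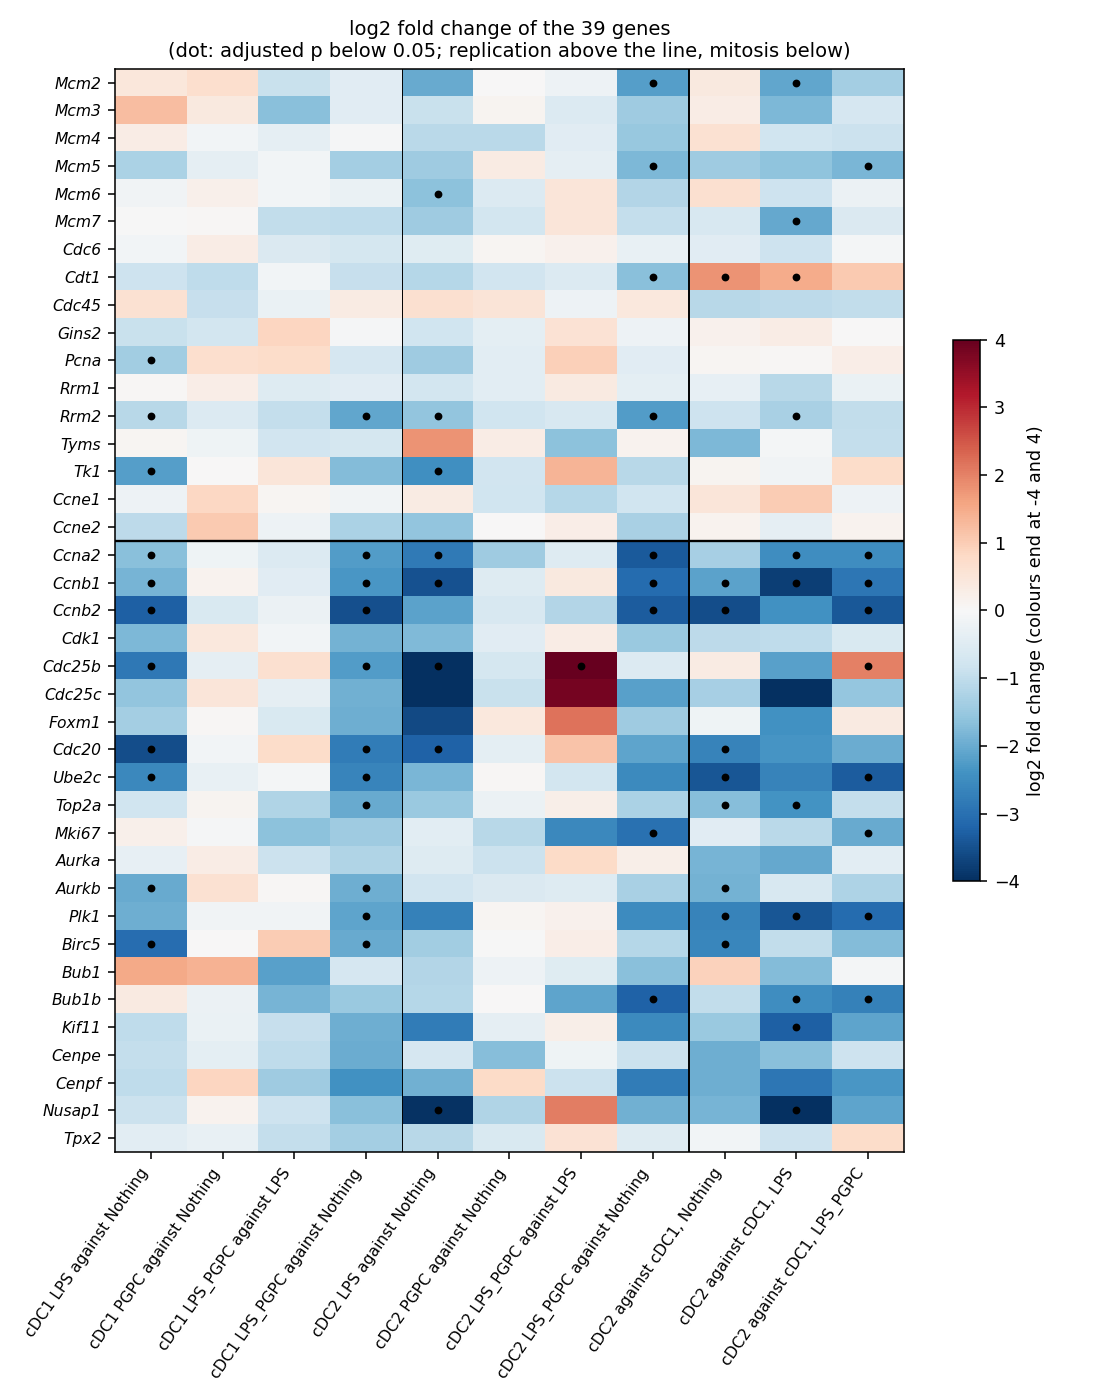
Fitted log2 fold change of the 39 genes (rows, replication above the line and mitosis below) in 11 comparisons (columns), blue for lower and red for higher, with a dot where the adjusted p is below 0.05. Of the 11 dots of cDC1 LPS against Nothing 8 lie below the line, and those of both PGPC columns are absent. Colours end at -4 and 4, and values in groups of 3 counts or fewer, such as -5.38 for Cdc25b in cDC2 with LPS, depend on the prior of the fit.

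In cDC2, LPS lowered 8 of the 39 genes and raised 0. These were 5 of 22 mitosis and 3 of 17 replication genes, where 2.7% of all tested genes were called lower and 5.82% higher. Cdc25b stood at 25.1, 35.1 and 22.4 CPM untreated and 0.511, 0 and 1.95 with LPS, which is 94, 136 and 6 counts against 1, 0 and 2. From these counts it was lower by 48.3-fold with a 95% counting interval of 16.3 to 236, and its adjusted p was 5.47e-05. Ccna2 went from 27.3, 27.1 and 29.9 to 6.64, 1.08 and 3.91 CPM (-2.83 ± 0.65, adjusted p = 0.00519). Ccnb1, with 3 counts over the LPS libraries, was lower by 12.5-fold with a 95% counting interval of 4.07 to 62.2, adjusted p = 0.0119. Cdc20, also with 3 counts, was lower by 8.79-fold with a 95% counting interval of 2.81 to 44.3, adjusted p = 0.0169, and the spindle gene Nusap1, with 2 counts, by 11.4-fold with a 95% counting interval of 2.93 to 97.2, adjusted p = 0.0178. Intervals cover counting error only, since the reads carry no molecular identifiers.

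Among the replication genes of cDC2, Mcm6 went from 141, 131 and 134 to 64.9, 25.8 and 40 CPM (-1.63 ± 0.41, adjusted p = 0.0103). Rrm2 went from 30.2, 26.8 and 29.9 to 8.69, 8.07 and 12.7 CPM (-1.57 ± 0.42, adjusted p = 0.0153) and Tk1 from 15.2, 15.2 and 14.9 to 0.511, 4.84 and 2.93 CPM (-2.46 ± 0.66, adjusted p = 0.0175). The untreated and LPS libraries of these 3 genes did not overlap. Mcm3 showed 1 LPS library apart from the other two, at 100.2, 14 and 13.7 CPM against 84.5, 92.5 and 56 untreated. That library, replicate 4, was also highest of the LPS group for Mcm2 (16.4, 3.23 and 8.79 CPM) and Mcm4 (42.4, 11.8 and 18.6 CPM), and for the sum of the 6 helicase genes (256, 78.5 and 87.9 CPM against 367, 382 and 328 untreated). Mcm2 (-2.01 ± 0.66, adjusted p = 0.0578), Mcm5 (-1.43 ± 0.54, adjusted p = 0.112), Pcna (-1.43 ± 0.48, adjusted p = 0.0697) and Ccne1 (0.34 ± 0.77, adjusted p = 0.885) were not called. Cdk1 (-1.77 ± 0.82, adjusted p = 0.227), Mki67 (-0.41 ± 0.57, adjusted p = 0.79) and Top2a (-1.49 ± 0.52, adjusted p = 0.0779) were not called either, and Foxm1 had 2 counts with LPS against 36 untreated and was lower by 11-fold with a 95% counting interval of 2.84 to 94.7, adjusted p = 0.227.

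The median log2 fold change with LPS in cDC2 was -1.13 for replication, -1.88 for mitosis and 0.03 for all tested genes. LPS libraries lay wholly below untreated ones for 12 mitosis and 8 replication genes, against 12.5% of all genes, and wholly above for 0 of the 39, against 14.6%. 2 of 10 tested monocyte and macrophage markers were lower and 1 higher (median -1.20), at 5557 to 6974 CPM in sum in untreated cDC2 against 2547 to 4368 in cDC2 with LPS. 2 of 7 tested plasmacytoid dendritic cell markers were higher and 0 lower (median 0.54), at 56 to 118 CPM in sum in untreated cDC2 against 283 to 640.0 in cDC2 with LPS, with Ly6d and Klk1 at 0 in both and Siglech at 0 in the latter. 1 of 7 tested stem and progenitor markers was lower and 1 higher (median -0.82), at 26.7 to 52.2 CPM in sum in untreated cDC2 against 41.9 to 52.1 in cDC2 with LPS, with Myb and Spink2 at 0 in both. Other marker calls were 0 higher and 1 lower of 9 cDC2 markers and 5 higher and 0 lower of 6 pan-dendritic markers. Granulocyte precursor markers summed to at most 3.91 CPM in cDC2 with LPS and 1.6 without, with Elane, Ctsg, Ms4a3, Cebpe, Ltf and S100a9 at 0 in both and 0 of 6 called. The part of the marker genes in the result was not tested. The count of 8 was 4 without untreated cDC2 replicate 4 and 4 without cDC2 LPS replicate 5, and 13 with DESeq2. Ccna2 and Cdc25b kept their calls under all 11 alternatives, and the other 6 lost theirs under at least 1, with highest adjusted p of Mcm6 (0.0708), Rrm2 (0.108), Tk1 (0.0864), Ccnb1 (0.061), Cdc20 (0.0897) and Nusap1 (0.0915).

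Whether the effect of LPS differed between the kinds was tested as an interaction, and 0 of the 39 genes passed, where 1.33% of all tested genes did. 6 of the 39 had an unadjusted p below 0.05, and DESeq2 called 0. The smallest adjusted p belonged to Mcm2, whose LPS effect was 0.45 in cDC1 and -2.01 in cDC2 (difference of log2 fold changes -2.46 ± 0.89, adjusted p = 0.198). For Mcm6 the effects were -0.14 and -1.63 (difference -1.49 ± 0.56, adjusted p = 0.223), and for Mcm3 1.23 and -0.88 (difference -2.11 ± 0.82, adjusted p = 0.238). For Cdc20 the effects were -3.54 and -3.24 (difference 0.30 ± 1.29, adjusted p = 0.993). Cdc20 had 3 counts over the cDC2 LPS libraries, so -3.24 and the difference depend on the prior of the fit. Mcm4, Cdc25b and Nusap1 were the others with an unadjusted p below 0.05, and the 12 genes Mcm2, Mcm5, Pcna, Rrm2, Ccne1, Ccna2, Ccnb1, Cdk1, Cdc20, Mki67, Top2a and Foxm1, a panel named in every comparison, ranged from -2.46 (Mcm2) to 0.55 (Ccne1). The test thus shows neither that the kinds respond unlike nor that they respond alike. The count of 0 was 1 without cDC2 LPS replicate 4 and 1 with no filter on low counts.

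Under LPS the 2 kinds were compared in the same way. Of the 39, cDC2 were lower in 10 and higher in 1, where 2.21% of all tested genes were called lower and 5.58% higher. Top2a stood at 68.2, 53.1 and 40 CPM in cDC1 with LPS and 15.3, 5.38 and 9.76 in cDC2 with LPS (-2.40 ± 0.51, adjusted p = 0.00304), without overlap. Nusap1, which bundles spindle microtubules, had 224 counts in cDC1 and 2 in cDC2 with LPS and was lower in cDC2 by 33.2-fold with a 95% counting interval of 9.09 to 276, adjusted p = 0.00178. Ccnb1 was lower by 12.6-fold with a 95% counting interval of 4.2 to 61.7, adjusted p = 0.00629. Ccna2 (-2.49 ± 0.64, adjusted p = 0.014), Plk1 (-3.42), Bub1b (-2.48) and the spindle motor Kif11 (-3.26) were lower, and so were Mcm2 (-2.08 ± 0.65, adjusted p = 0.0496), Mcm7 (-2.04 ± 0.59, adjusted p = 0.0326) and Rrm2 (-1.30 ± 0.41, adjusted p = 0.0482). Cdt1 was again higher in cDC2, at 32.2, 74.8 and 69.3 against 25.7, 14.2 and 22 CPM (1.49 ± 0.41, adjusted p = 0.023).

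Mcm5 (-1.60 ± 0.52, adjusted p = 0.0594), Pcna (0.04 ± 0.47, adjusted p = 0.983), Ccne1 (1.03 ± 0.75, adjusted p = 0.47), Cdk1 (-1.02 ± 0.80, adjusted p = 0.511), Mki67 (-1.08 ± 0.56, adjusted p = 0.273) and Foxm1 (adjusted p = 0.436) were not called between the kinds under LPS. Neither was Cdc20, which was lower by 6.62-fold with a 95% counting interval of 2.17 to 32.9, adjusted p = 0.0939. 6 of 10 tested monocyte and macrophage markers were higher in cDC2 and 0 lower (median 2.74), at 805 to 1656 CPM in sum in cDC1 with LPS against 2547 to 4368 in cDC2 with LPS. 3 of 7 tested plasmacytoid dendritic cell markers were lower in cDC2 and 1 higher (median -1.12), at 249 to 419 CPM in sum in cDC1 with LPS against 283 to 640.0 in cDC2 with LPS, with Klk1 at 0 in both and Siglech and Ly6d at 0 in the latter. Between the kinds under LPS, 1 of 7 tested stem and progenitor markers was lower in cDC2 (82.6 to 114 against 41.9 to 52.1 CPM in sum, with Spink2 at 0 in both and Myb at 0 in the latter). Further marker calls were 1 higher and 7 lower of 10 cDC1 markers, 2 higher and 2 lower of 9 cDC2 markers, 0 higher and 1 lower of 6 pan-dendritic markers and 1 of 6 B cell markers (higher). Their part in this difference was not tested. The median log2 fold changes were -0.84 for the replication genes, -2.41 for the mitosis genes and -0.04 for all tested genes. The count of 11 was 5 without cDC1 LPS replicate 1, 5 without cDC1 LPS replicate 2, 7 without cDC1 LPS replicate 3, 3 without cDC2 LPS replicate 5 and 4 without cDC2 LPS replicate 6. Ccnb1, Top2a and Nusap1 kept their calls under all 10 alternatives, and the other 8 lost theirs under at least 1, with highest adjusted p of Mcm2 (0.201), Mcm7 (0.176), Cdt1 (0.104), Rrm2 (0.218), Ccna2 (0.091), Plk1 (0.123), Bub1b (0.146) and Kif11 (0.154).

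PGPC alone gave no call among these genes. In cDC1, 0 of 39 passed, where 2.08% of all tested genes did, and 1 had an unadjusted p below 0.05. That gene was Cdt1, which is not among the calls of DESeq2 (0 of 39), at 9.27, 25.4 and 21.3 CPM against 46.3, 37.4 and 28.9 untreated (-1.01 ± 0.40, adjusted p = 0.199). Ccna2 stood at 54.8, 67.6 and 65.9 CPM with PGPC, beside untreated values of 78.1, 79.5 and 54.2, and Top2a at 103, 62.1 and 132 CPM against 88.4, 99.9 and 90.8. Pcna was at 78.8, 71.2 and 67.5 CPM against 27.5, 63.6 and 43.5, higher in all 3 libraries but not called (0.68 ± 0.45, adjusted p = 0.489). The panel of 12 genes ranged from -0.54 (Rrm2) to 0.83 (Ccne1), and the medians were 0.05 for replication and -0.02 for mitosis.

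In cDC2 with PGPC, 0 of 39 genes passed and 0 had an unadjusted p below 0.05, where 0.016% of all tested genes were called. DESeq2 called 0 of the 39. With 2 libraries against 3 the smallest adjusted p was 0.858, for Ccna2, at 16.4 and 1.72 CPM against 27.3, 27.1 and 29.9 untreated (-1.41 ± 0.69). Mki67, at 17 and 3.44 CPM, lay below the untreated libraries (26.5, 25.8 and 18.7 CPM) in both PGPC libraries. Birc5, at 7.66 and 0 CPM, had 1 PGPC library above the untreated ones (5.35, 4.64 and 3.73 CPM) and 1 below. The second value of each gene is from replicate 5, where 1 count is worth 1.72 CPM. The panel of 12 ranged from -1.41 (Ccna2) to 0.43 (Foxm1), and the median was -0.43 for replication and -0.49 for mitosis. cDC1 with PGPC was the group with the most of the mast cell and basophil markers, with no other above 2.36 CPM in sum (47.1 to 71.8 here, with 5 of 6 having a count and Mcpt4 at 0), and their granulocyte precursor markers summed to 259 to 1161 CPM with Elane at 0. Of the tested mast cell and basophil markers 2 of 4 were called higher there than in untreated cDC1, and of the monocyte and macrophage markers 1 of 10. The part of these markers in the levels of cDC1 with PGPC was not tested. The ribosomal RNA locus held 14.1% to 35.4% of counts in cDC1 with PGPC, against 40.7% to 71.9% untreated. In cDC2 it held 52% and 60.9% with PGPC, against 28.6% to 37.3% untreated.

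For PGPC added to LPS, 1 of the 39 genes was called in cDC2 and 0 in cDC1. The one was Cdc25b of cDC2, which rose, where 0.281% of all tested genes were called higher and 0.104% lower. It stood at 0.511, 0 and 1.95 CPM with LPS and 11.1, 18.6 and 27.8 with LPS_PGPC, or 1, 0 and 2 against 75, 61 and 122 counts. All 3 LPS_PGPC libraries lay above all LPS libraries, beside untreated values of 25.1, 35.1 and 22.4 and PGPC values of 18.6 and 15.5 CPM. It was higher by 28.9-fold with a 95% counting interval of 9.77 to 141, adjusted p = 0.00214, and the call was kept under all 11 alternatives, with a highest adjusted p of 0.0237. Mki67 of cDC2 was at 28.1, 10.2 and 16.6 CPM with LPS and 4.3, 3.96 and 0.91 with LPS_PGPC, lower in all 3 but not called by edgeR (-2.57 ± 0.61, adjusted p = 0.0557). It was called lower with median-ratio scaling, with no filter on low counts and by DESeq2, which brings the count to 2 under each. The panel genes with over 3 counts in both groups ranged from -2.57 (Mki67) to 0.96 (Pcna), and 5 of the 39 had an unadjusted p below 0.05. The median log2 fold change in cDC2 was -0.19 for replication, 0.23 for mitosis and 0.01 for all tested genes. No tested gene of the marker lists was called in this step of cDC2.

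In cDC1 the same step called 0 of 39, where 1.94% of all tested genes were called in either direction. That count is near this share, and 5 of the 39 had an unadjusted p below 0.05. The median log2 fold change was -0.28 for replication, -0.57 for mitosis and 0.07 for all tested genes. Mki67 stood at 29.1, 41.9 and 45.8 CPM with LPS and 7.43, 21.4 and 8.51 with LPS_PGPC (-1.64 ± 0.55, adjusted p = 0.12), and Mcm3 at 174, 172 and 105 and 68.4, 42.1 and 30.1 CPM (-1.68 ± 0.58, adjusted p = 0.129). Bub1b stood at 42.7, 32.5 and 26.4 and 8.2, 15.4 and 4.39 CPM (-1.86 ± 0.65, adjusted p = 0.136), Top2a at 68.2, 53.1 and 40 and 14.5, 34.3 and 20.7 (-1.22 ± 0.46, adjusted p = 0.175) and Rrm2 at 25, 26 and 20.6 and 11.4, 16.5 and 9.07 (-0.95 ± 0.38, adjusted p = 0.195). All LPS_PGPC libraries of these 5 genes lay below all LPS libraries, as they did for 9 of the 39 against 12.8% of all tested genes, while 2 of the 39 lay above against 13.6%. DESeq2 called Mcm3 and Mki67 lower, and Mcm3 was also called lower with no filter on low counts and with the replicate number as a block. The panel ranged from -1.64 (Mki67) to 0.75 (Cdc20). Cdc25b of cDC1 was at 5.0, 6.13 and 2.99 CPM (0.64 ± 0.57, adjusted p = 0.618). The interaction, the difference of its PGPC effect between cDC2 and cDC1, was 4.18 ± 0.98, adjusted p = 0.205. With 3 counts of Cdc25b over the cDC2 LPS libraries, this difference depends on the prior of the fit. None of the 39 passed that interaction by edgeR (3 had an unadjusted p below 0.05, and 0.00802% of all tested genes were called), and DESeq2 called Cdc25b.

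Against untreated cells, LPS_PGPC lowered 11 of the 39 genes in cDC1 and 9 in cDC2 and raised 0 in either. These comparisons share their untreated libraries with the LPS ones. In cDC1 the 11 were 10 mitosis genes and Rrm2, where 5.32% of all tested genes were called lower and 6.57% higher. For replication, 1 of 17 called lower is near that share. Top2a went from 88.4, 99.9 and 90.8 to 14.5, 34.3 and 20.7 CPM (-2.01 ± 0.47, adjusted p = 0.00543). Rrm2 went from 63.5, 55.7 and 36.1 to 11.4, 16.5 and 9.07 CPM (-2.06 ± 0.39, adjusted p = 7.10e-04). Cdc20 had 7.69, 6.24 and 2.9 CPM with LPS_PGPC (-2.79 ± 0.59, adjusted p = 0.00222) and Ccnb2 2.56, 10.9 and 0.561 CPM (-3.50 ± 0.78, adjusted p = 0.00348). In each of the 4 the LPS_PGPC libraries lay below the untreated ones. Ccna2 (-2.22 ± 0.56, adjusted p = 0.00883), Ccnb1 (-2.32 ± 0.61, adjusted p = 0.0128), Cdc25b (-2.23), Ube2c (-2.65), Aurkb (-1.95), Plk1 (-2.11) and Birc5 (-2.01) also fell. Mcm2 (-0.45 ± 0.60, adjusted p = 0.7), Mcm5 (-1.37 ± 0.48, adjusted p = 0.0643), Pcna (-0.66 ± 0.45, adjusted p = 0.379), Ccne1 (-0.13 ± 0.73, adjusted p = 0.945), Cdk1 (-1.90 ± 0.70, adjusted p = 0.0781), Mki67 (-1.42 ± 0.55, adjusted p = 0.0947) and Foxm1 (-1.96 ± 1.27, adjusted p = 0.357) were not called. Tk1 (-1.72, adjusted p = 0.0524) and Cdt1 (-0.94, adjusted p = 0.136) were not called by edgeR either. DESeq2 called Tk1, Mcm5, Cdk1 and Mki67 lower.

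The LPS_PGPC libraries of cDC1 lay wholly below the untreated ones for 19 mitosis and 5 replication genes, against 15.1% of all tested genes, and wholly above for 0, against 14.7%. Medians in cDC1 were -0.66 for replication, -1.97 for mitosis and -0.09 for all tested genes. 6 of 10 tested monocyte and macrophage markers were lower and 1 higher (median -3.12), at 1442 to 4167 CPM in sum in untreated cDC1 against 480.1 to 742 in cDC1 with LPS_PGPC. 4 of 7 tested plasmacytoid dendritic cell markers were lower and 0 higher (median -1.77), at 548 to 717 CPM in sum in untreated cDC1 against 285 to 416 in cDC1 with LPS_PGPC, with Klk1 at 0 in both. With LPS_PGPC in cDC1, 1 of 6 tested granulocyte precursor markers was lower (47.2 to 198 against 1.15 to 70.2 CPM in sum, with Elane at 0 in both, Ms4a3 and Cebpe at 0 in the former and Mpo and Ctsg at 0 in the latter). 1 of 7 tested stem and progenitor markers was lower (196 to 265 against 41.4 to 128 CPM in sum, with Spink2 at 0 in both). Other marker calls were 0 higher and 3 lower of 10 cDC1 markers, 1 higher and 0 lower of 9 cDC2 markers, 4 higher and 1 lower of 6 pan-dendritic markers and 1 of 6 B cell markers (lower). Their part in the result was not tested. The count of 11 was 6 without untreated cDC1 replicate 2 and 6 without cDC1 LPS_PGPC replicate 3. Rrm2, Ccnb2, Cdc25b, Cdc20 and Top2a kept their calls under all 11 alternatives, Cdc25b closely (highest adjusted p 0.0499), and the other 6 lost theirs under at least 1, with highest adjusted p of Ccna2 (0.0585), Ccnb1 (0.0841), Ube2c (0.0842), Aurkb (0.105), Plk1 (0.184) and Birc5 (0.189).

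In cDC2 the 9 genes that fell with LPS_PGPC were 5 mitosis and 4 replication genes, where 2.2% of all tested genes were called lower and 5.42% higher. Mki67 went from 26.5, 25.8 and 18.7 to 4.3, 3.96 and 0.91 CPM (-2.98 ± 0.61, adjusted p = 0.00237), and Bub1b, the checkpoint protein BubR1, from 13.1, 10.8 and 18.7 to 1.93, 1.52 and 0.682 (-3.23 ± 0.76, adjusted p = 0.00756). Ccna2 went to 2.67, 3.96 and 1.59 CPM (-3.35 ± 0.63, adjusted p = 9.66e-04). Rrm2 went from 30.2, 26.8 and 29.9 to 8.46, 5.79 and 4.09 CPM (-2.22 ± 0.41, adjusted p = 8.42e-04) and Cdt1 from 136, 125 and 123 to 34.7, 40.5 and 45.7 CPM (-1.67 ± 0.41, adjusted p = 0.0097), and the treated libraries of all 5 genes lay below the untreated ones. Ccnb1 (-3.08), Ccnb2 (-3.33), Mcm2 (-2.20 ± 0.64, adjusted p = 0.0306) and Mcm5 (-1.79 ± 0.52, adjusted p = 0.032) also fell. Cdc25b did not pass (-0.56 ± 0.54, adjusted p = 0.634), and neither did Pcna (-0.47 ± 0.46, adjusted p = 0.644), Ccne1 (-0.80 ± 0.76, adjusted p = 0.63), Cdk1 (-1.48 ± 0.74, adjusted p = 0.269), Cdc20 (-2.11 ± 0.68, adjusted p = 0.0565), Top2a (-1.26 ± 0.49, adjusted p = 0.127) or Foxm1 (-1.43 ± 1.33, adjusted p = 0.613). The LPS_PGPC libraries lay wholly below the untreated ones for 12 mitosis and 9 replication genes, against 13.7% of all tested genes, and wholly above for 0, against 18.9%. 1 of 10 tested monocyte and macrophage markers was lower and 1 higher (median -0.17), at 5557 to 6974 CPM in sum in untreated cDC2 against 2498 to 4676 in cDC2 with LPS_PGPC. 2 of 7 tested plasmacytoid dendritic cell markers were higher and 0 lower (median 0.07), at 56 to 118 CPM in sum in untreated cDC2 against 336 to 557 in cDC2 with LPS_PGPC, with Klk1 at 0 in both and Ly6d at 0 in the former. With LPS_PGPC in cDC2, 1 of 7 tested stem and progenitor markers was lower (26.7 to 52.2 against 14.6 to 25.2 CPM in sum, with Myb and Spink2 at 0 in both). Other marker calls were 1 higher and 0 lower of 10 cDC1 markers and 5 higher and 0 lower of 6 pan-dendritic markers. The part of these markers was not tested. Median log2 fold changes were -1.10 for the replication genes, -2.01 for the mitosis genes and 0.07 for all tested genes. The count of 9 was 5 without untreated cDC2 replicate 4, and 15 with DESeq2. Cdt1, Rrm2, Ccna2, Mki67 and Bub1b kept their calls under all 11 alternatives, and the other 4 lost theirs under at least 1, with highest adjusted p of Mcm2 (0.167), Mcm5 (0.186), Ccnb1 (0.0521) and Ccnb2 (0.164).

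Between the kinds under LPS_PGPC, cDC2 were lower in 8 of the 39 genes and higher in 1, where 2.51% of all tested genes were called lower and 4.58% higher. The higher one was Cdc25b, at 11.1, 18.6 and 27.8 CPM against 5.0, 6.13 and 2.99 in cDC1 (2.02 ± 0.55, adjusted p = 0.0244). The lower ones were Ccna2 (-2.47 ± 0.60, adjusted p = 0.0119), Ccnb1 (-2.90), Ccnb2 (-3.38), Ube2c (-3.32), Plk1 (-3.08), Bub1b (-2.72), Mki67 (-2.01 ± 0.59, adjusted p = 0.0358) and Mcm5 (-1.84 ± 0.50, adjusted p = 0.0261). Mcm2 (-1.37), Pcna (0.27), Rrm2 (-0.99), Ccne1 (-0.19), Cdk1 (-0.61), Cdc20 (-1.97), Top2a (-0.95) and Foxm1 (0.37) were not called, and Cdt1 lay above cDC1 in all libraries with an adjusted p of 0.117. 8 of 10 tested monocyte and macrophage markers were higher in cDC2 and 0 lower (median 4.51), at 480.1 to 742 CPM in sum in cDC1 with LPS_PGPC against 2498 to 4676 in cDC2 with LPS_PGPC. 3 of 6 tested granulocyte precursor markers were lower in cDC2 and 0 higher (median -5.67), at 1.15 to 70.2 CPM in sum in cDC1 with LPS_PGPC against 0.593 to 1.14 in cDC2 with LPS_PGPC, with Mpo, Elane and Ctsg at 0 in both and Ms4a3, Cebpe, Ltf, Camp and Ngp at 0 in the latter. Between the kinds under LPS_PGPC, 1 of 7 tested plasmacytoid dendritic cell markers was lower in cDC2 (285 to 416 against 336 to 557 CPM in sum, with Klk1 at 0 in both). 1 of 7 tested stem and progenitor markers was lower in cDC2 (41.4 to 128 against 14.6 to 25.2 CPM in sum, with Spink2 at 0 in both and Myb at 0 in the latter). Further marker calls were 1 higher and 6 lower of 10 cDC1 markers, 1 higher and 2 lower of 9 cDC2 markers, 0 higher and 3 lower of 6 pan-dendritic markers and 1 of 6 B cell markers (higher). The part of these markers was not tested. The median log2 fold change was -0.26 for the replication genes, -1.86 for the mitosis genes and -0.03 for all tested genes. The count of 9 was 1 without cDC1 LPS_PGPC replicate 2, 3 without cDC2 LPS_PGPC replicate 4, 3 without cDC2 LPS_PGPC replicate 5 and 4 without cDC2 LPS_PGPC replicate 6. Each of the 9 calls was lost under at least 1 of the 10 alternatives, with highest adjusted p from 0.0531 (Ube2c) to 0.285 (Ccnb2).

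The balance of the 2 programmes was described per library as the mean log2(CPM + 1) of the 17 replication genes minus that of the 22 mitosis genes, with no test. Untreated cDC1 stood near 0, at -0.16, -0.03 and 0.21, and cDC1 with PGPC at 0.02, 0.18 and -0.12. With LPS the cDC1 libraries stood at 1.02, 0.99 and 0.84 and with LPS_PGPC at 1.64, 0.62 and 1.43, all above the libraries without LPS. Untreated cDC2 stood at 1.28, 1.37 and 1.70, all above untreated cDC1, and cDC2 with PGPC at 1.42 and 1.92. With LPS the cDC2 libraries stood at 1.57, 2.16 and 2.23 and with LPS_PGPC at 1.80, 2.03 and 1.57, both overlapping the untreated values. That overlap rests on the shallow untreated replicate 6, at 1.70, where 1 count is worth 3.73 CPM: the other two untreated libraries lay below every cDC2 library with LPS or LPS_PGPC. As a ratio of summed CPM, replication over mitosis, untreated cDC2 stood at 2.73, 2.76 and 2.49, cDC2 with LPS at 3.02, 4.31 and 4.36 and with LPS_PGPC at 3.13, 3.71 and 2.9, and neither treated group overlapped the untreated one. Whether the cDC2 groups overlap thus depends on the measure. For cDC1 the ratio was 0.862, 0.801 and 0.972 untreated, 1.95, 1.91 and 1.65 with LPS and 3.98, 1.29 and 2.72 with LPS_PGPC, again without overlap, and for PGPC alone 1.01, 1.07 and 0.787 in cDC1 and 2.74 and 3.27 in cDC2.

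**Figure D3:**
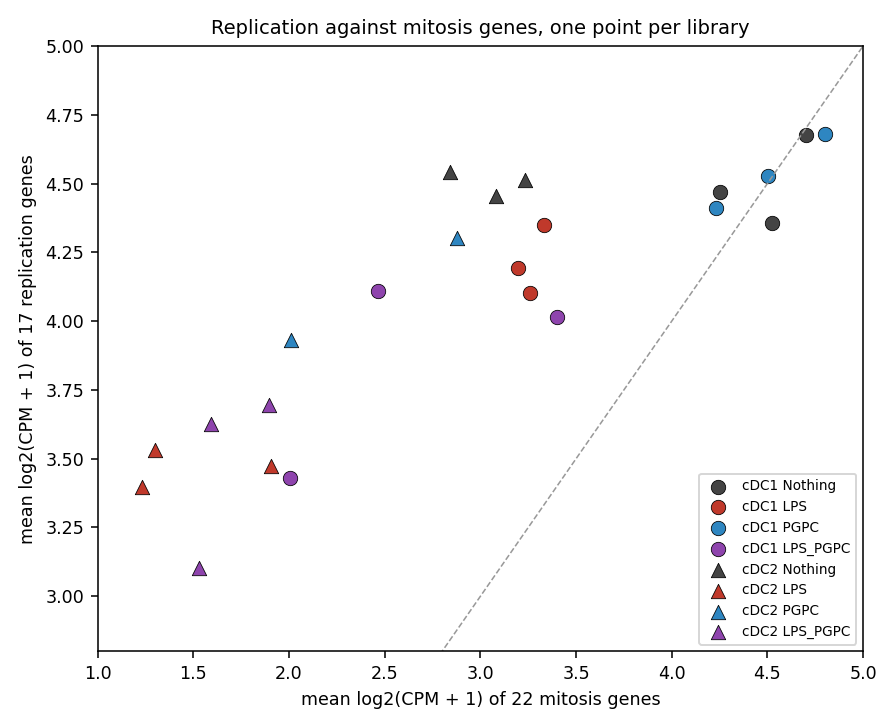
Mean log2(CPM + 1) of the 17 replication genes against that of the 22 mitosis genes, with a point per library, circles for cDC1 and triangles for cDC2, and colours for treatment. The dashed line marks equal means: untreated and PGPC libraries of cDC1 lie near it (differences of -0.16, -0.03 and 0.21 and 0.02, 0.18 and -0.12), and every other library lies above the line.

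17 of the 39 genes were called in none of the 13 comparisons, 9 for replication and 8 for mitosis. Of the licensing and fork genes, Mcm4 stood at 37.8, 32.8 and 32.2 CPM in untreated cDC1 and 42.2, 46.7 and 70.9 in untreated cDC2, while Cdc6, the loader of the helicase, had 6.01, 7.07 and 4.99 and 5.88, 3.09 and 3.73 CPM. Cdc45, a part of the active helicase, had 0, 7.7 and 1.96 and 1.07, 1.55 and 3.73 CPM, and Gins2 14.6, 22.5 and 18 and 19.2, 26 and 14.9. The untreated kinds overlapped for these 4 except for Mcm4, where cDC2 were higher in all libraries. Rrm1, the large subunit of ribonucleotide reductase, stood at 34.3, 45.6 and 53.6 CPM in untreated cDC1 and 55, 49.6 and 32.9 with LPS, unlike its partner Rrm2, which was called. Thymidylate synthase, Tyms, had 6.01, 16.9 and 15.7 CPM untreated and 14.8, 13.6 and 13.5 with LPS in cDC1, and 2.94, 3.61 and 7.46 and 5.62, 20.4 and 13.7 in cDC2. Cyclin E2 (Ccne2) had 1.72, 4.8 and 6.35 CPM in untreated cDC1 and 4.81, 3.87 and 7.46 in untreated cDC2.

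On the mitotic side Tpx2, which targets Aurora A to the spindle, stood at 34.3, 40 and 36 CPM in untreated cDC1 and 43.1, 19.5 and 19.7 with LPS, and Aurora A itself (Aurka) at 10.3, 21.8 and 8.01 and 18.3, 8.86 and 4.41 CPM. The checkpoint kinase Bub1 stood at 7.72, 3.79 and 5.29 CPM untreated and 21.5, 14.8 and 9.7 with LPS in cDC1, all LPS libraries higher but not called (1.51 ± 1.23, adjusted p = 0.428). In cDC2 Bub1 stood at 15.2, 6.96 and 7.46 CPM untreated and 11.2, 0 and 1.95 with LPS. Cdc25c, Cenpe and Cenpf reached at most 18.9 CPM in an untreated library, and Cdc25c had 0 counts in the 3 cDC2 LPS libraries, against 12 untreated, or at least 2.45-fold lower when set against 3 counts over the group. Cdk1, Foxm1, Ccne1 and Mcm3 are described above.

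95 further cell cycle genes were looked at in 4 lists, of which 92 were tested. With LPS in cDC1, 7 of 34 further mitosis genes fell and 0 rose, and of 31 further replication genes 1 rose (the maintenance methyltransferase Dnmt1, 1.45 ± 0.49, adjusted p = 0.0407) and 1 fell (the dUTPase Dut, -1.78 ± 0.58, adjusted p = 0.0341). Over all tested genes 9.37% were called lower and 8.56% higher, so each of the single calls among the 31 is below that share. Stmn1, which destabilizes microtubules, went from 106, 215 and 124 to 21, 21.3 and 21.7 CPM (-2.80 ± 0.49, adjusted p = 2.78e-04), and Cenpa, the histone of centromeres, from 49.8, 79.5 and 48.5 to 3.47, 12.4 and 9.99 (-2.84 ± 0.54, adjusted p = 5.51e-04). The cytokinesis genes Kif23 (-2.49 ± 0.69, adjusted p = 0.0129) and Racgap1 (-1.63 ± 0.47, adjusted p = 0.0173) fell as well. Of 13 G1 regulators, cyclin D2 (Ccnd2) and Rb1 (1.93 ± 0.65, adjusted p = 0.0403) rose and Cdk4 (-1.32 ± 0.46, adjusted p = 0.0478) fell. For 13 genes both counts are near the shares over all tested genes and say nothing particular about this list. Ccnd2 stood at 18, 19.4 and 16.2 CPM untreated and 172, 132 and 97.2 with LPS (2.90 ± 0.41, adjusted p = 2.47e-05). Of 14 Cdk inhibitor and quiescence genes 4 rose and 2 fell: the p21 gene Cdkn1a (1.62 ± 0.50, adjusted p = 0.0258) and Ccng1 (1.25 ± 0.34, adjusted p = 0.0122) rose, as did Btg1 and Btg2, named here after their values were seen (1.60 and 1.10), while Cdkn2d (-1.96 ± 0.53, adjusted p = 0.0113) and Foxo3 (-1.52 ± 0.45, adjusted p = 0.0208) fell.

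With LPS in cDC2, 6 of 34 further mitosis genes fell and 0 rose, among them Stmn1 (27.5, 23.7 and 14.9 against 0.511, 4.3 and 0 CPM, -3.68 ± 0.63, adjusted p = 2.95e-04), Cenpa (-2.91 ± 0.63, adjusted p = 0.00301), Racgap1 (-2.08) and Cdca8 (-2.89). Of 31 further replication genes 1 fell, E2f2 (-4.01 ± 0.84, adjusted p = 0.00221). Over all tested genes 2.7% were called lower and 5.82% higher, so the single fall among the 31 is near that share. Of 13 G1 regulators 1 rose and 1 fell, counts too small to say anything particular about that list. Ccnd2 rose from 9.89, 9.02 and 3.73 to 153, 108 and 103 CPM (3.81 ± 0.45, adjusted p = 8.18e-06), while cyclin D1 (Ccnd1) fell from 185, 222 and 179 to 71, 38.2 and 37.1 CPM (-2.0 ± 0.38, adjusted p = 9.44e-04). In cDC1 Ccnd1 stood at 147, 121 and 147 CPM untreated and 224, 184 and 138 with LPS (0.40 ± 0.36, adjusted p = 0.488). The difference between these effects passed the interaction test (-2.40 ± 0.52, adjusted p = 0.0175), the one of the 92 tested genes that did, where 1.33% of all tested genes passed. That count is near the share over all tested genes. Of 14 Cdk inhibitor and quiescence genes 2 rose in cDC2, Cdkn1a (1.86 ± 0.51, adjusted p = 0.019) and Btg2 (1.75 ± 0.42, adjusted p = 0.00787), and 0 fell.

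With LPS_PGPC against untreated cells, Ccnd2 (3.00 in cDC1 and 4.34 in cDC2), Cdkn1a (2.54 and 1.93) and Btg1 (2.67 and 2.87) were higher in both kinds, with adjusted p from 5.29e-06 to 0.0165. Of 13 G1 regulators 2 were called higher in cDC1 and 1 in cDC2, and 0 lower. Of 14 Cdk inhibitor and quiescence genes 4 were called higher and 1 lower in cDC1, and 3 and 0 in cDC2. Over all tested genes 6.57% were called higher in cDC1 and 5.42% in cDC2. Btg1, an antiproliferative gene, stood at 113, 88.9 and 51.7 CPM in untreated cDC1 and 389, 480.0 and 741 with LPS_PGPC, and at 56.9, 29.4 and 26.1 and 435, 224 and 194 in cDC2. Of the further mitosis genes 4 of 34 fell in cDC1, where 5.32% of all tested genes did, and 4 in cDC2, where 2.2% did. Among them were Stmn1 (-2.28 and -2.02), Racgap1 (-1.65 and -2.62) and Kif23 (-2.65 and -2.55), which fell in both. E2f8, a repressor of E2F targets, also fell in both (-1.79 and -2.27). Of 31 further replication genes 2 fell in cDC1 and 1 in cDC2, near the shares over all tested genes. The step from LPS to LPS_PGPC called 1 of the 92 in cDC1, Myc, which fell (-2.19 ± 0.51, adjusted p = 0.0233), where 1.94% of all tested genes were called, and 0 in cDC2. PGPC alone called 2 in cDC1, the primase subunit Prim2 (-2.42 ± 0.64, adjusted p = 0.0469) and Foxo3 (-1.81 ± 0.46, adjusted p = 0.0373), both lower, where 2.08% of all tested genes were called in either direction, and 0 in cDC2. Both counts in cDC1 are near or below the share over all tested genes and say nothing particular about these lists.

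Between the untreated kinds, cDC2 were lower in 4 of 34 further mitosis genes, Stmn1 (-2.67 ± 0.50, adjusted p = 0.00123), the condensin subunit Smc4 (-2.34 ± 0.57, adjusted p = 0.00927), Cks1b (-2.59 ± 0.64, adjusted p = 0.01) and Cenpa (-1.82 ± 0.53, adjusted p = 0.029), where 6.17% of all tested genes were called lower. Of 31 further replication genes 1 was lower in cDC2, which is below that share: the clamp loader subunit Rfc5 (-1.76 ± 0.52, adjusted p = 0.03). Of 14 Cdk inhibitor and quiescence genes 2 were lower, Btg2 (-2.19 ± 0.42, adjusted p = 0.0015) and Cdkn2d (-1.87 ± 0.55, adjusted p = 0.0311). Of 13 G1 regulators 0 were lower.

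**Figure D4:**
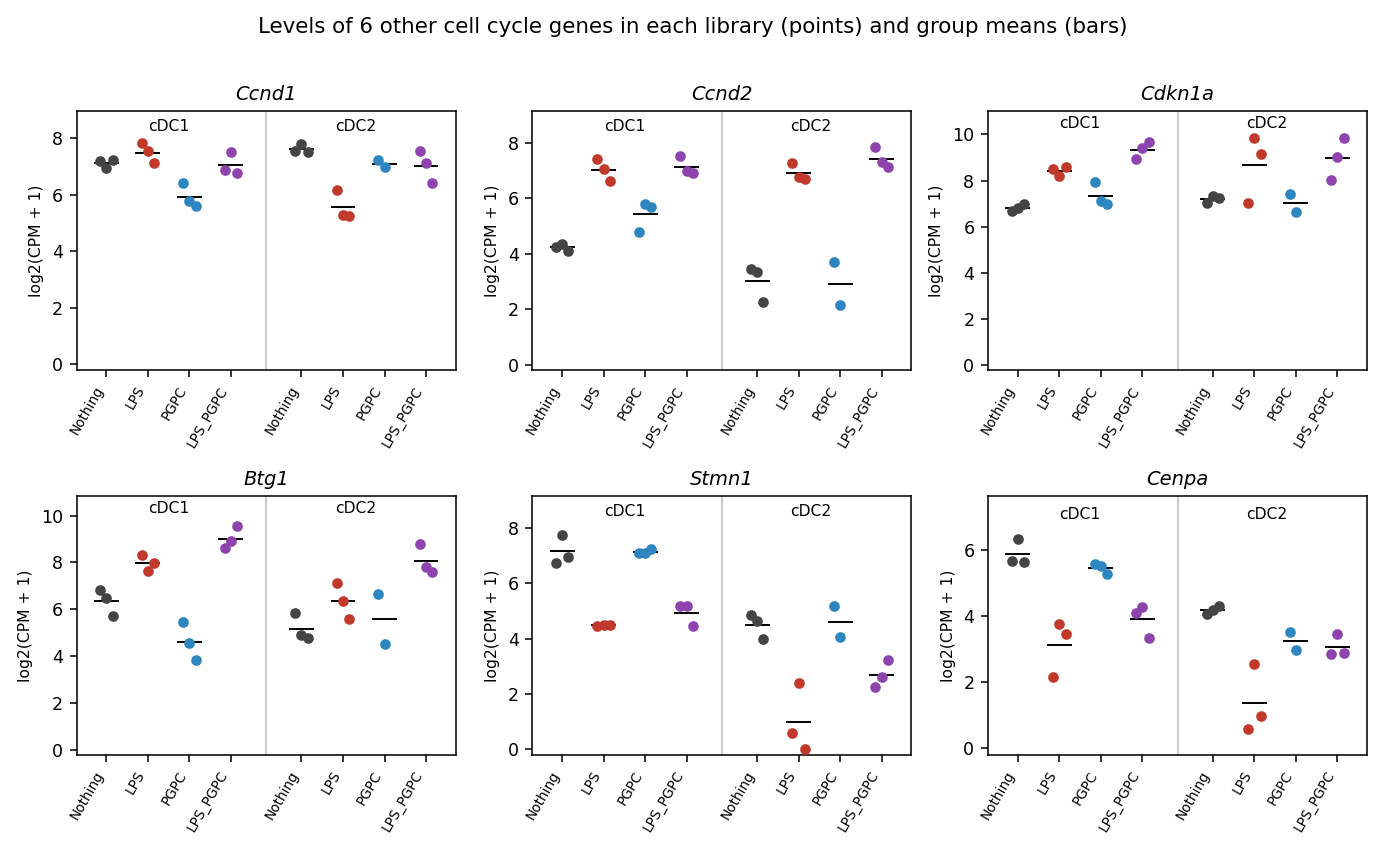
Level of 6 further cell cycle genes in each library, as log2(CPM + 1), with a point per library and a bar at the group mean, for cDC1 on the left and cDC2 on the right. Ccnd2 is higher in every library with LPS (153, 108 and 103 CPM in cDC2 LPS) than in every library without it, and Ccnd1 falls in the cDC2 LPS libraries (71, 38.2 and 37.1 CPM). Stmn1 is lower in the LPS than in the untreated libraries of both kinds.

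Some of the 39 genes share sequence or exons with other rows, and Smart-Seq2 reads carry no strand. Gins2 shares 67.3% of its exonic bases with Gse1 and Ube2c 22.8% with Tnnc2, so reads there cannot be assigned with certainty. The shares were 17.4% for Ccne2, 12.7% for Cdc25c, 12.6% for Mcm7 and 12.5% for Ccna2. Pcna, Tyms, Ccnb1 and Ccnb2 have pseudogene rows in the table, between which reads can be split.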

How the data were processed

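RNA was read from FLT3 ligand dendritic cells by Smart-Seq2 with Nextera XT libraries, from an input equal to about 2000 cells per sample, per the labels' protocols. The authors deposited 1 table of RSEM expected counts per gene symbol, with no normalization; RSEM, bcl2fastq 2.2 and GRCm38 come from the submitters' processing notes. 21% of values above 0 were not whole, and all were rounded.

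Of 36 libraries, the 23 of 8 groups entered 1 fit with a mean per group. edgeR 4.0.16 in R 4.3.3 was used: filterByExpr, at a minimum count of 10 and a minimum total of 15, left 12463 genes, which were scaled by TMM and tested by robust quasi-likelihood over 13 comparisons, each adjusted by Benjamini-Hochberg over the whole set of genes, with a threshold of 0.05. Standard errors are the size of the fold change over the root of F. The biological coefficient of variation was 0.545. The step was tested on simulated data. Ratios of groups with 3 or fewer counts come from the summed counts, with exact 95% intervals that cover counting error only.

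The 39 genes and all lists were chosen with earlier results of these data known. Chosen for naming in each comparison were a panel of 12 genes and up to 4 replication and 4 mitosis genes, and up to 4 of each further list, with the smallest adjusted p. Not each of them is printed in every comparison. Alternatives were median-ratio scaling, no low-count filter, DESeq2 1.42.0, the replicate number as a block, leaving out each library, and leaving out 4 rows of the ribosomal RNA locus. The last was chosen after seeing the data, since the planned row Rn45s is not a row of the table. 12 alum libraries and 1 with 3805 counts were left out of all comparisons. Gene positions are from GENCODE M21 and promoters from RefSeq on GRCm38.p6.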

Additional observations from a re-analysis of the deposited data

Results flagged for a closer look

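In libraries left out of the comparisons, 5 of the 39 genes exceeded every untreated library of the same kind with over 3 counts, on plain CPM with no TMM scaling. All 3 libraries are of cDC2 with alum. Replicate 6 with alum held 1989 counts of Rrm2 (1850.4 CPM, against 26.7 to 33.7 in untreated cDC2), 1393 of Cdk1 (1296 CPM, against 8.2 to 11.3) and 418 of Tk1 (389 CPM, against 15.2 to 17). Replicate 4 with alum held 20.57 counts of Rrm1 (56 CPM, against 33.8 to 41) and 5 of Birc5 (13.6 CPM, against 4.1 to 5.97). Replicate 4 with LPS and alum held 195.82 counts of Rrm1 (205 CPM, against 33.8 to 41). Few of the other genes were seen there. Of the 39 genes, 6 had a count in replicate 6 with alum and 3 in replicate 4 with alum. In replicate 4 with LPS and alum 3 had a count, against 35 to 39 in untreated cDC2 libraries. These are single libraries with no test, and no effect of alum can be read from them.

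The effect of LPS on Ccnd1, which encodes cyclin D1, differed between the kinds by the interaction term: the log2 fold change in cDC2 minus that in cDC1 was -2.40 ± 0.52, adjusted p = 0.0175 (edgeR). Ccnd1 was lower in 3 of 3 cDC2 LPS libraries than in every untreated one (71, 38.2 and 37.1 against 185, 222 and 179 CPM), and overlapped in cDC1. It was the only further cell cycle gene that passed, where 1.33% of all tested genes did. That count is near this share and says nothing particular about these genes as a set. The call was not followed under the alternatives.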

How the results depend on the processing

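Among the named results of the 39 genes, no direction of a call reversed under any alternative run. The further cell cycle genes were not part of this check. Of the 39 genes, DESeq2 called 13 in cDC2 with LPS (8 by edgeR), 15 in cDC2 with LPS_PGPC against untreated (9), 2 in cDC1 with LPS_PGPC against LPS (0), 2 for the same step in cDC2 (1) and 1 for its interaction (0). Without a filter on low counts the count was 1 for LPS_PGPC against LPS in cDC1, 2 in cDC2 and 1 for the LPS interaction (0 with it). Median-ratio scaling gave 2 for LPS_PGPC against LPS in cDC2. The cause of these shifts was not tested.

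Leaving out each library in turn gave 4 to 10 genes for LPS in cDC1 (11 with all), 6 to 14 for LPS_PGPC against untreated in cDC1 (11), 4 to 10 for LPS in cDC2 (8), 5 to 9 for LPS_PGPC against untreated in cDC2 (9), 2 to 9 between the untreated kinds (9), 3 to 10 between the kinds with LPS (11), 1 to 9 with LPS_PGPC (9) and 0 to 1 for the LPS interaction (0). These fits have fewer libraries, and where cDC2 PGPC keeps 1 library it is assumed to vary like the other groups. Among single-gene results, such refits lost a call 156 times, gained one 11 times and left it as it was 1418 times. Leaving out the ribosomal RNA locus ended 3 of its results' calls, median-ratio scaling 2, no filter 10 and DESeq2 0, while they gained 0, 3, 4 and 15.

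With the replicate number as a block, the count was 1 for LPS_PGPC against LPS in cDC1 (0 without it; Mcm3, which fell) and within 1.5 times elsewhere; 3 single results lost a call and 4 gained one. Same-numbered libraries correlated at -0.19 to 0.52 in their deviations from group means, and different-numbered ones at -0.45 to 0.33. Between LPS and LPS_PGPC all same-numbered values were above 0 (0.18, 0.03 and 0.13 in cDC1, 0.52, 0.09 and 0.20 in cDC2). The labels do not name the numbers as pairs, so the main fit used no block. Whether they are pairs was not settled, and the kinds share no numbers.

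Over all 12463 tested genes, edgeR called 259 for PGPC in cDC1, 242 for LPS_PGPC against LPS in cDC1, 48 for that step in cDC2, 2 for PGPC in cDC2, 166 for the LPS interaction and 1 for the other. DESeq2 called 637, 716, 190, 19, 428 and 53, and no filter gave 632, 585, 156, 33, 425 and 97. Leaving out a library gave 1435 to 1867 of all genes for LPS in cDC1 (2235 with all), 1070 to 1273 for LPS_PGPC against untreated there (1482), 657 to 985 and 544 to 797 for these in cDC2 (1062 and 950), 547 to 1194, 497 to 1395 and 404 to 844 between the kinds untreated, with LPS and with LPS_PGPC (1266, 971 and 884), 119 to 317 and 1 to 3 for PGPC in cDC1 and cDC2, 60 to 273 and 19 to 83 for LPS_PGPC against LPS, and 75 to 442 and 1 to 46 for the interactions. Depth limits the mitosis genes of cDC2 with LPS, several of which have 3 counts or fewer over 3 libraries.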
